A study of Homo sapiens with 18 samples.

Results

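The 78 protein-coding genes whose symbol is MRPL or MRPS followed by a number, which encode proteins of the mitochondrial ribosome, were followed in leukemia cells treated with a Menin inhibitor, a BET inhibitor or both. They were taken by symbol and gene type from the 58037 gene IDs of a bulk RNA-seq count table, 49 with an MRPL and 29 with an MRPS symbol, on 21 chromosomes, and 86 IDs with such a symbol that are not protein-coding, mostly pseudogenes, were left out. The series held 18 libraries of 3 human acute myeloid leukemia (AML) cell lines in 8 groups, each cultured for 16 h. SNDX-50469 is an inhibitor of the binding of Menin to MLL1, named VTP in the sample titles, and OTX015 an inhibitor of the BET bromodomain proteins. MOLM13 cells, which carry the fusion MLL-AF9, received 500 nM SNDX-50469 together with 500 nM OTX015, OTX015 alone, SNDX-50469 alone or neither (2 libraries each). MV4-11 cells, also with a rearranged MLL1 gene, received 1000 nM SNDX-50469 or neither (2 libraries each). OCI-AML3 cells, with germline MLL1 and mutant NPM1, received 500 nM SNDX-50469 or neither (3 libraries each). Each line stands for 1 patient's leukemia, the MV4-11 dose was higher than that of the other lines, and MV4-11 was grown in IMDM and the others in RPMI medium, so that line, dose and medium cannot be told apart in comparisons with MV4-11.

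The mitochondrial ribosome translates the mRNAs that the mitochondrial genome encodes, all of which specify subunits of the respiratory chain and the ATP synthase. Its rRNAs are transcribed inside the organelle, while its proteins are encoded by nuclear genes, made in the cytosol and imported, so that the parts come from both genomes. Proteins with bacterial counterparts form the old core of both subunits, and proteins specific to mitochondria cover much of its surface. MYC and the ETS factor GABP, the nuclear respiratory factor NRF1 and the factor YY1 are known regulators of nuclear genes for mitochondrial proteins.

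Library totals ran from 19320216 to 59711884 counts. All 78 genes had counts in every library. Of the controls of drug action, MEIS1, a target of MLL1 and Menin, fell by 2.60 on the log2 scale with SNDX-50469 in MOLM13. It fell by 1.86 in MV4-11 and by 0.49 in OCI-AML3. HEXIM1, a gene that BET inhibitors induce, rose by 2.11 with OTX015. With both agents HEXIM1 rose by 2.58, whereas MEIS1 fell by only 0.50 against control and stood 2.10 above its level with SNDX-50469 alone. The leukocyte and myeloid genes PTPRC, CD33 and SPI1 were present in every library, whereas the erythroid gene HBB was at 0 in all. In MOLM13, the summed level of 5 myeloid markers was 535 and 554 CPM (counts scaled to a common library size) with both agents. It was 378 and 387 CPM with OTX015, 807 and 801 CPM with SNDX-50469, and 768 and 745 CPM in control. Its part in the results was not tested. Other marker genes gave a less clear picture. Of the 5 myeloid markers, MPO had a mean of 106 CPM in MOLM13 control, 4.5 CPM with OTX015 and 6.41 CPM with both agents. ANPEP had a mean of 1.45 CPM in MOLM13 control. The erythroid gene EPOR had group means between 17.5 and 45.8 CPM. The lymphoid gene CD3D had a mean of 6.62 CPM in MOLM13 control, and the epithelial genes KRT8 and KRT18 had 8.55 and 6.52 CPM in MV4-11 control. The MV4-11 libraries stood apart from each other: the chi-square statistic per degree of freedom between replicates was 23.9 for the treated and 43.9 for the control pair, whereas MOLM13 pairs lay between 2.01 and 2.61 and OCI-AML3 pairs between 1.46 and 7.03. In control replicate 1 of MV4-11, RNAs of the mitochondrial genome took 10.28% of the counts, against 5.60% in control replicate 2.

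The CPM were scaled by TMM over all 18 libraries and are shares of the RNA sequenced, so that a fall can mean fewer transcripts per cell or more of other RNA. In bulk cells, a smaller number of cells that express a gene cannot be told apart from less of its RNA per cell. A gene was taken to have risen or fallen where the adjusted p (edgeR's quasi-likelihood test, Benjamini-Hochberg over all genes tested) was below 0.05 and the change at least 0.32 on the log2 scale, which is the study's own fold limit. Errors of log2 fold changes are standard errors.

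**Figure D1:**
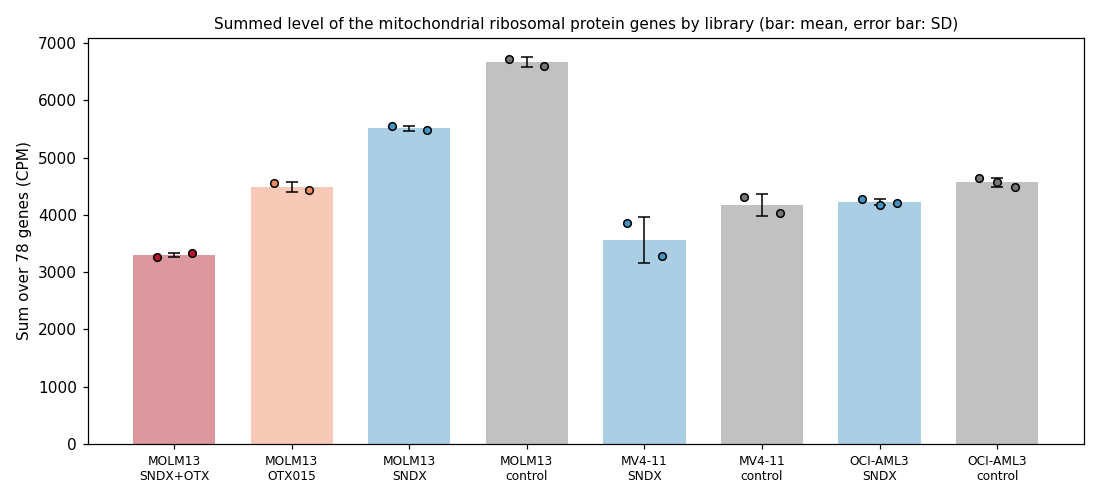
Summed level in CPM (y axis) of the 78 mitochondrial ribosomal protein genes in each library (points) of the 8 groups (x axis), with the group mean as a bar and the SD as an error bar (n = 2, for OCI-AML3 n = 3). In MOLM13 the 4 groups do not overlap, with means of 3301 CPM with both agents, 4488 CPM with OTX015, 5508 CPM with SNDX-50469 and 6666 CPM in control.

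In MOLM13 cells, both agents together lowered nearly the whole gene family. The 78 genes summed to 3273 and 3330 CPM in the libraries with both agents, to 4549 and 4427 CPM with OTX015, to 5543 and 5473 CPM with SNDX-50469, and to 6729 and 6604 CPM in control. The 4 groups lay apart in this order with no overlap, as the plot of summed levels shows, and the mean sum with both agents was 49.5% of control, with OTX015 67.3% and with SNDX-50469 82.6%. With both agents, 73 of the 78 genes fell and 0 rose, where 30.9% of the 14360 genes tested fell and 31.2% rose. The count of 0 risen members held with DESeq2 and limma-voom and at an unadjusted p below 0.05, here as for SNDX-50469 alone in MOLM13 and MV4-11 and for both agents against OTX015. The median log2 fold change of the family was -0.94, against 0.018 for all genes tested, and the lower quartile -1.24 against -0.58. By at least 1 on the log2 scale 33 members fell, a limit at which all genes were not counted. The 5 genes that did not pass the test were MRPL10, MRPS14, MRPL53, MRPL38 and MRPS6, with log2 fold changes between -0.045 and 0.16.

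**Figure D2:**
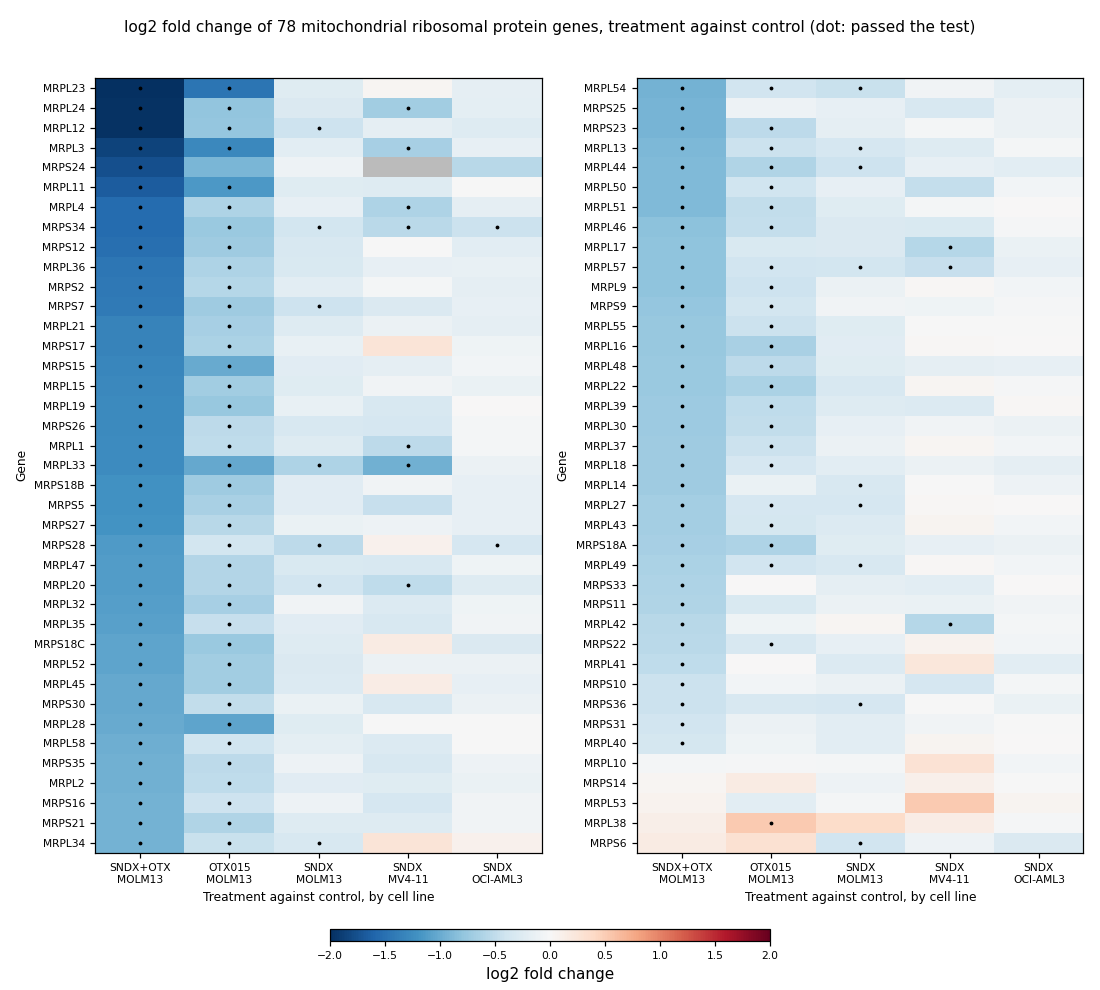
Heat map of the log2 fold change (color, from -2 to 2) of the 78 mitochondrial ribosomal protein genes (rows, ordered by the change with both agents, continued in the right panel) in 5 comparisons of treatment against control (columns). Dots mark changes that passed the test, and gray marks MRPS24 in MV4-11, which was not tested. The first column is blue down to MRPL40 (-0.35), and the columns of SNDX-50469 in MV4-11 and OCI-AML3 are pale with few dots.

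The 5 lowest log2 fold changes with both agents were those of MRPL23, MRPL24, MRPL12, MRPL3 and MRPS24. MRPL23, a protein at the tunnel through which the new peptide leaves, had 25.2 and 25.3 CPM with both agents, 35.9 and 35.4 CPM with OTX015, 85.7 and 80.5 CPM with SNDX-50469 and 104 and 96.1 CPM in control (log2 fold change with both agents against control -1.99 ± 0.064, edgeR adjusted p = 2.73e-37). MRPL24 (chr1:156737303-156742716 on GRCh38), at the same tunnel, had 18.5 and 20.1 CPM with both agents, 44.2 and 42.5 CPM with OTX015, 59.4 and 62.6 CPM with SNDX-50469 and 77.6 and 74.9 CPM in control (-1.98 ± 0.070, edgeR adjusted p = 2.77e-35). MRPL12 (chr17:81703367-81707517), which forms the flexible stalk that recruits translation factors, had 13.8 and 14.2 CPM with both agents, 32.1 and 31.0 CPM with OTX015, 42.6 and 38.4 CPM with SNDX-50469 and 59.0 and 51.2 CPM in control (-1.98 ± 0.082, edgeR adjusted p = 1.58e-31). For each of these 3 genes the libraries with both agents were the lowest of the 8 MOLM13 libraries and the controls the highest, with no overlap between any of the 4 groups. MRPL3, which binds rRNA early in the assembly of the large subunit, had 61.4 and 63.3 CPM with both agents, 94.3 and 86.1 CPM with OTX015, 191 and 188 CPM with SNDX-50469 and 225 and 225 CPM in control (-1.85 ± 0.049, edgeR adjusted p = 1.12e-41). MRPL11, at the base of the stalk, had 38.7 and 38.9 CPM with both agents, 54.1 and 53.7 CPM with OTX015, 102 and 100 CPM with SNDX-50469 and 122 and 122 CPM in control (-1.66 ± 0.056). Both again showed 4 groups in the same order without overlap. Exons of MRPL23, MRPL3 and MRPL11 each overlap a gene on the opposite strand, and those of MRPL12 another ID on the same strand. For MRPL3, 1 pseudogene is also in the table. MRPS24, at the mRNA entry of the small subunit, was the last of the lowest 5 (-1.76 ± 0.59, edgeR adjusted p = 0.00599), but it was counted at only 0.215 and 0.201 CPM with both agents and 0.716 and 0.721 CPM in control. Its exons are shared with the readthrough gene URGCP-MRPS24, and its call was lost with DESeq2.

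The stalk was not lowered as a whole. MRPL10, the protein that holds MRPL12 on the ribosome, had 65.9 and 64.5 CPM with both agents, 65.7 and 63.9 CPM with OTX015, 63.1 and 64.8 CPM with SNDX-50469 and 67.5 and 66.7 CPM in control. Its 8 values lay between 63.1 and 67.5 CPM, and the log2 fold change with both agents was -0.045 ± 0.057 (edgeR adjusted p = 0.482). MRPS14, a small-subunit protein with a bacterial counterpart, had 27.7 and 28.4 CPM with both agents and 26.7 and 27.8 CPM in control, and the groups overlapped (0.037 ± 0.079, edgeR adjusted p = 0.683). MRPS6, another small-subunit protein of bacterial origin, had 24.7 and 26.3 CPM with both agents, 28.0 and 27.2 CPM with OTX015, 15.5 and 18.5 CPM with SNDX-50469 and 22.9 and 22.5 CPM in control. It lay above control with OTX015 and below it with SNDX-50469, and with both agents it did not pass the test (0.16 ± 0.086, edgeR adjusted p = 0.0799). Exons of MRPS6 overlap SLC5A3 on the same strand and 2 pseudogenes of it are in the table. The remaining pair, MRPL38 and MRPL53, both specific to mitochondria, were counted at 2.47 and 2.41 CPM and 1.94 and 1.56 CPM with both agents, against 2.30 and 2.21 CPM and 1.48 and 1.83 CPM in control. With so few counts the standard errors of their log2 fold changes were 0.25 and 0.29, against 0.057 for MRPL10.

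**Figure D3:**
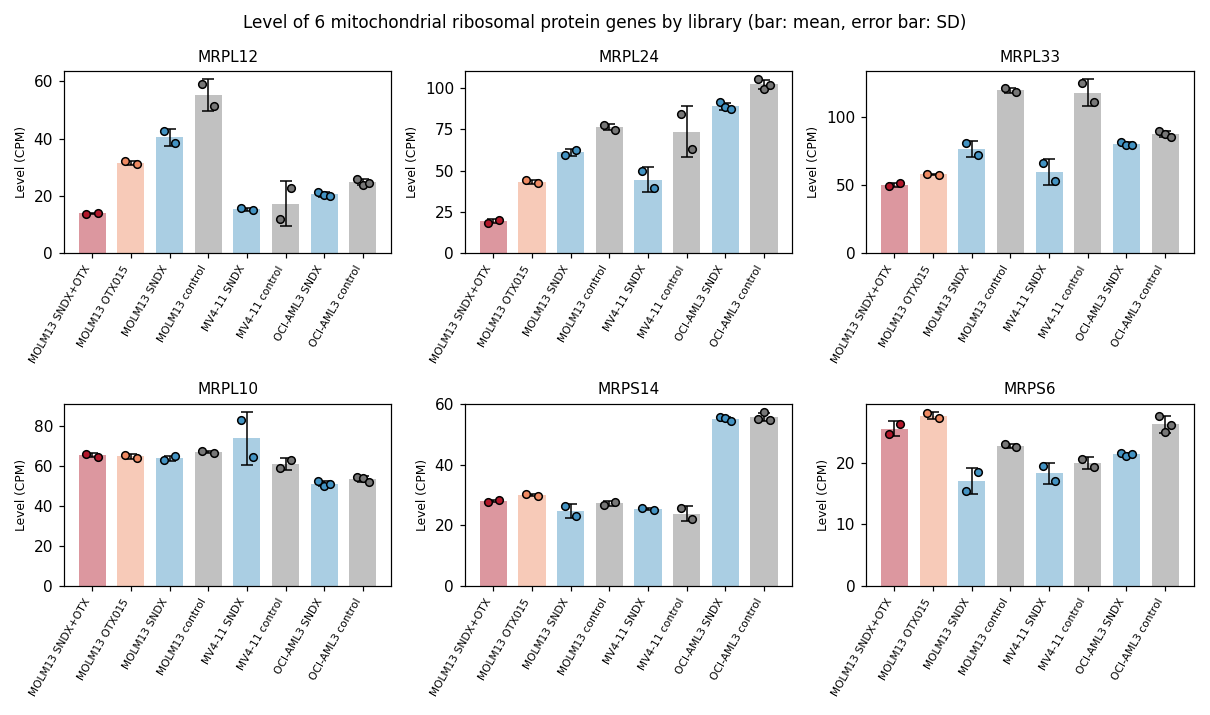
Level in CPM (y axes, from 0) of 6 mitochondrial ribosomal protein genes in each library (points) by group (x axis), with the mean as a bar and the SD as an error bar. MRPL12 and MRPL24 step down across the MOLM13 groups, MRPL33 is low in treated MOLM13 and MV4-11 cells, and MRPL10, MRPS14 and MRPS6 keep similar levels with both agents and in control.

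By role, most groups of members fell together with both agents, where 30.9% of all genes tested fell. Of 51 large-subunit proteins 48 fell (median log2 fold change -0.89), and of 26 small-subunit proteins 24 fell (median -1.01). Among 45 proteins of bacterial origin 42 fell (median -1.09), and among 29 proteins specific to mitochondria 27 fell (median -0.82). The difference between these classes was not tested. Around the exit tunnel MRPL22 had a log2 fold change of -0.74 ± 0.072, less than MRPL23 and MRPL24, and MRPL45, which ties the tunnel's mouth to the inner membrane, -1.03 ± 0.058. Near the peptidyl transferase centre, where peptide bonds form, MRPL16 had -0.75 ± 0.056 and MRPL27 -0.68 ± 0.065. On the small subunit, MRPS12 at the decoding site had 62.5 and 61.3 CPM with both agents and 183 and 170 CPM in control, with no overlap (-1.51 ± 0.051, edgeR adjusted p = 2.04e-36). MRPS2, MRPS5 and MRPS7, which also have bacterial counterparts, fell by 1.44, 1.20 and 1.41 on the log2 scale. The paralogs of bacterial S18 all fell, with log2 fold changes of -0.66 for MRPS18A, which sits in the large subunit, -1.21 for MRPS18B and -1.06 for MRPS18C. Among the other genes that fell were MRPL44, with a ribonuclease III fold (-0.89), and MRPL58, a peptidyl-tRNA hydrolase that frees stalled ribosomes (-0.98). MRPS27, a pentatricopeptide repeat protein, fell by 1.20. MRPS36, which carries the family's symbol but is a subunit of the alpha-ketoglutarate dehydrogenase complex, was among the members that fell least (-0.43 ± 0.085).

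Overlapping genes and copies touch many members. Exons of 40 of the 78 genes overlap another annotated gene, on the opposite strand for 29 and on the same strand for 15, and 36 genes have a pseudogene among the IDs of the table. In the 19 genes with neither, 18 fell with both agents and 0 rose, with a median log2 fold change of -0.93. The same 19 genes had 15 that fell with OTX015 (median -0.50) and 3 with SNDX-50469 (median -0.26). Of all genes tested, 30.9% fell with both agents, 24.7% with OTX015 and 5.24% with SNDX-50469.

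Of 6 motifs of known regulators, the ETS and YY1 motifs were the ones whose frequency in promoters of the family stood furthest above that in coding promoters at large. RefSeq promoters on GRCh38.p14, from 250 bases before to 50 bases after the start, matched 70 of the 78 genes, and the 15843 promoters of protein-coding genes, members included, served as comparison. On either strand, the ETS motif CCGGAAG was in 29 of the 70 (41.4%, against 14.2% of coding promoters) and the YY1 motif AAGATGG in 23 (32.9%, against 6.4%). The NRF1 motif GCATGCG was in 10% against 5.1%, the E-box CACGTG, which MYC binds, in 10% against 8.9%, the GC-box GGGCGG in 61.4% against 58.5%, and CCAAT in 28.6% against 36.4%. The median log2 fold change with both agents was -0.93 in members with the ETS motif and -0.94 without it, -1.03 with the YY1 motif and -0.81 without it, -1.06 with the NRF1 motif and -0.89 without it, and -0.74 with the E-box and -0.94 without it. With OTX015 alone the E-box members had the lower median (-0.61 with it and -0.50 without it). None of these differences was tested. A match is only a string of letters in the window, and binding was not measured. The last 100 bases before the start of 4 genes that fell with both agents, MRPL3, MRPS34, MRPL36 and MRPS12, and of 2 that did not pass the test, MRPS14 and MRPL53, are shown as examples chosen after their values were seen, 5′ to 3′ on the gene's strand, with every match to the 6 motifs on either strand in capitals:

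MRPL3: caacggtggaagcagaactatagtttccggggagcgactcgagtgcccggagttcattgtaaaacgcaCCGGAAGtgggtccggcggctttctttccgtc

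MRPS34: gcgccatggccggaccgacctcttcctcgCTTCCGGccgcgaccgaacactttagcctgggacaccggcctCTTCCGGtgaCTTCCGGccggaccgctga

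MRPL36: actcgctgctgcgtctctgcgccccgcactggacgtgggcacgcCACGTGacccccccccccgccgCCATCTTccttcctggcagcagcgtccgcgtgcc

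MRPS12: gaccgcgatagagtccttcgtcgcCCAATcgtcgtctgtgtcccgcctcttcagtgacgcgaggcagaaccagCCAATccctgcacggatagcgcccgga

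MRPS14: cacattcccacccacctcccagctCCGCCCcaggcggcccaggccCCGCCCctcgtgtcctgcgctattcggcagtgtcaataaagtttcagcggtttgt

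MRPL53: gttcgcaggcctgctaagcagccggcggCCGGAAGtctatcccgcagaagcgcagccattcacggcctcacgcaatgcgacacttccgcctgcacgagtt

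MRPL3 (chr3:131502972-131503071, minus strand) held 1 ETS motif, whose first letter stood 32 bases before the start. MRPS34 (chr16:1773135-1773234, minus strand) held the reverse complement of the ETS motif at 71, 29 and 19 bases. MRPL36 (chr5:1799838-1799937, minus strand) held an E-box at 56 bases and the reverse complement of the YY1 motif at 34 bases. This stretch lies within the annotated span of MRPL36 (chr5:1798385-1801434), so that the start used is an internal one. MRPS12 (chr19:38930844-38930943, plus strand) held CCAAT at 76 and 27 bases. Of the genes that did not pass the test, MRPS14 (chr1:175023426-175023525, minus strand) held reverse complements of the GC-box at 76 and 55 bases. MRPL53 (chr2:74472681-74472780, minus strand) held an ETS motif at 72 bases. The full promoter window used for the counts also held ETS, YY1 and GC-box motifs for MRPS12 and a GC-box for MRPS34 and MRPL53. The log2 fold change with both agents was -1.85 for MRPL3, -1.54 for MRPS34, -1.44 for MRPL36 and -1.51 for MRPS12, against 0.037 for MRPS14 and 0.067 for MRPL53.

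OTX015 alone lowered most of the family. Of the 78 genes 61 fell and 1 rose, where 24.7% of all genes tested fell and 23.5% rose, with a median log2 fold change of -0.50 against 0.013 for all genes tested. The 5 lowest were MRPL23 (-1.46 ± 0.061), MRPL3 (-1.29 ± 0.047), MRPL11 (-1.15 ± 0.053), MRPL28 (-1.05 ± 0.054) and MRPL33 (-1.02 ± 0.055). MRPL28, a large-subunit protein, had 68.9 and 60 CPM with OTX015 and 139 and 134 CPM in control (edgeR adjusted p = 3.58e-26), and with both agents it stood at 69.9 and 66.1 CPM, in the same range as with OTX015. Exons of MRPL28 overlap PGAP6 on the same strand. In all, 6 members fell by at least 1 on the log2 scale, a limit at which all genes were not counted. The lower quartile of all genes tested was -0.41 with OTX015 and -0.58 with both agents. MRPL38 was the 1 gene that rose, with 2.49 and 3.87 CPM with OTX015 and 2.30 and 2.21 CPM in control (0.53 ± 0.23, edgeR adjusted p = 0.0429). Replicate 2 with OTX015 carried this rise, the change without it was 0.18, and the call was also lost without either control replicate. The other members at the upper end, MRPS6 (0.31), MRPS14 (0.16), MRPL41 (0.0026) and MRPS33 (0.0024), did not pass the limits.

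SNDX-50469 alone had a small effect in the same direction. In MOLM13, 16 of the 78 genes fell and 0 rose, where 5.24% of all genes tested fell and 8.06% rose, and the median log2 fold change was -0.24 against 0.0082 for all genes tested. No member fell by 1 or more, a limit at which all genes were not counted. With the adjusted p as the sole limit 57 members fell, where 2526 of the 14360 genes tested did. Without scaling factors 8 members fell, where 524 of the 14360 did. MRPL33, the counterpart of bacterial L33, had 80.9 and 72.5 CPM with SNDX-50469 and 121 and 119 CPM in control (-0.62 ± 0.052, edgeR adjusted p = 5.17e-15), and the groups did not overlap. Its exons overlap BABAM2 on the same strand. MRPS28, a small-subunit protein, had 10.4 and 11.3 CPM with SNDX-50469 and 16.7 and 15.2 CPM in control (-0.53 ± 0.11, edgeR adjusted p = 7.23e-05), and MRPL54 had 76.4 and 76.9 CPM with SNDX-50469 and 106 and 107 CPM in control (-0.44 ± 0.051). Neither gene's groups overlapped. MRPL44 and MRPL12 followed with -0.41 and -0.41. At the other end, MRPL38 had 0.37 ± 0.23 and MRPL42 0.042 ± 0.063, and MRPL10 was at -0.039 ± 0.056, none past the test.

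Each agent lowered the family further in cells that received the other. Against SNDX-50469 alone, both agents lowered 68 genes and raised 1, where 29.0% of genes tested fell and 27.9% rose, with a median of -0.70. The lowest were MRPL23 (-1.75), MRPL24 (-1.69), MRPS24 (-1.66 ± 0.59), MRPL3 (-1.64) and MRPL12 (-1.57). The gene that rose was MRPS6 (0.55 ± 0.089, edgeR adjusted p = 1.27e-07), with the values given above. Against OTX015 alone, both agents lowered 53 genes and raised 0, where 16.5% of genes tested fell and 18.4% rose, with a median of -0.44. Here MRPL12 (-1.20 ± 0.088) and MRPL24 (-1.20 ± 0.074) fell most, followed by MRPL4 (-0.92), a large-subunit protein with a bacterial counterpart, and MRPS2 (-0.86). MRPL28, which OTX015 alone had lowered, was at 0.047 ± 0.058 in this comparison, and MRPL10 at -0.021.

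**Figure D4:**
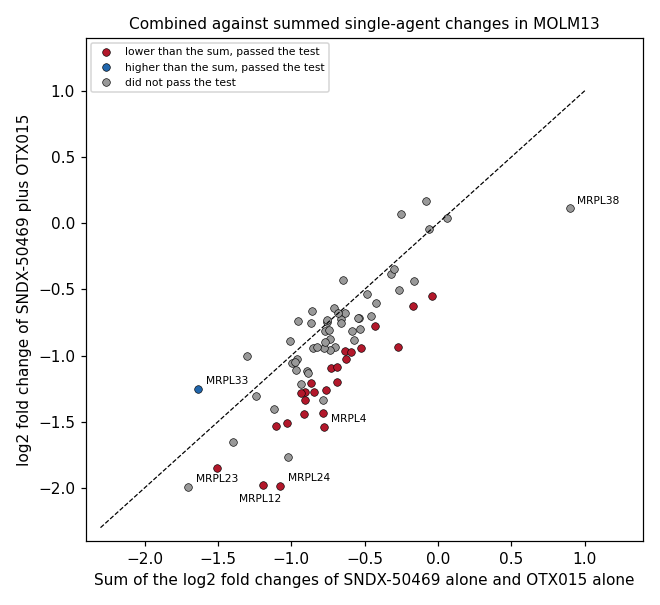
For each of the 78 genes in MOLM13, the log2 fold change with SNDX-50469 plus OTX015 (y axis) against the sum of the log2 fold changes of each agent alone (x axis), with the line of equality dashed. Of the 78 genes 64 lie below the line, and colors mark the 25 whose change was lower than the sum and the 1 (MRPL33) whose change was higher in the interaction test.

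For part of the family the combined effect exceeded the sum of the single effects. The interaction, which is the change that SNDX-50469 made on top of OTX015 less the change it made by itself, was below 0 for 64 of the 78 genes (median -0.23, against -0.012 for all genes tested). It passed the test as lower for 25 genes and as higher for 1, where 12.7% and 11.5% of the genes tested did. With the adjusted p alone 40 members were lower, where 2584 of the 14360 genes tested were. In 1 fit of all 18 libraries 15 members were lower, where 1105 of 17597 genes were. The lowest was MRPL24 (-0.90 ± 0.095, edgeR adjusted p = 4.32e-12): its change with SNDX-50469 was -1.20 on the log2 scale on top of OTX015 and -0.29 alone. MRPL12 had an interaction of -0.79 ± 0.11 (edgeR adjusted p = 3.55e-08) and MRPL4 of -0.76 ± 0.070 (edgeR adjusted p = 3.42e-14). MRPL4 stood at 53.1 and 55.4 CPM with both agents, 99.6 and 101 CPM with OTX015, 138 and 139 CPM with SNDX-50469 and 159 and 156 CPM in control, again 4 groups without overlap. The small-subunit proteins MRPS25 and MRPS2 had interactions of -0.66 and -0.65, and MRPS27 of -0.51. MRPL38 (-0.79 ± 0.33) and MRPS24 (-0.74 ± 0.81) were among the lowest but did not pass. MRPL33 went the other way (0.38 ± 0.080, edgeR adjusted p = 8.88e-05), with 49.4 and 51.6 CPM with both agents, 58.4 and 57.9 CPM with OTX015, 80.9 and 72.5 CPM with SNDX-50469 and 121 and 119 CPM in control. Its call was lost without replicate 2 of SNDX-50469. In the 84 cytosolic ribosomal protein genes, given for comparison, 77 fell with both agents (median -0.66), where 30.9% of all genes tested fell. The interaction in these 84 was lower for 6 and had a median of 0.05. The difference between the families was not tested.

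The rest of the machinery that expresses the mitochondrial genome was followed in lists. With both agents 30.9% of all genes tested fell and 31.2% rose. Of the mitoribosomal proteins that do not carry the family's symbol, all 5 tested fell with both agents, from GADD45GIP1 (-1.29 ± 0.045), at the exit tunnel, to the GTP-binding protein DAP3 (-0.60 ± 0.047). Of 26 assembly factors 21 fell and 0 rose (median -0.64), among them MRM1, which methylates the large rRNA (-2.18), the assembly factor MALSU1 (-1.20) and TFB1M, which methylates the small rRNA (-1.04). Of 17 translation factors 14 fell (median -0.72), including the elongation factor TUFM (-1.15), the recycling factor MRRF (-1.42) and SLIRP, which stabilizes mitochondrial mRNAs (-1.44). Of 20 genes that charge mitochondrial tRNAs 15 fell (median -0.63), EARS2 the most (-1.31). Of 16 import and chaperone genes 14 fell (median -1.35), including the import channel TOMM40 (-1.79), the protease CLPP (-1.96) and the chaperonin HSPD1 (-1.47).

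**Figure D5:**
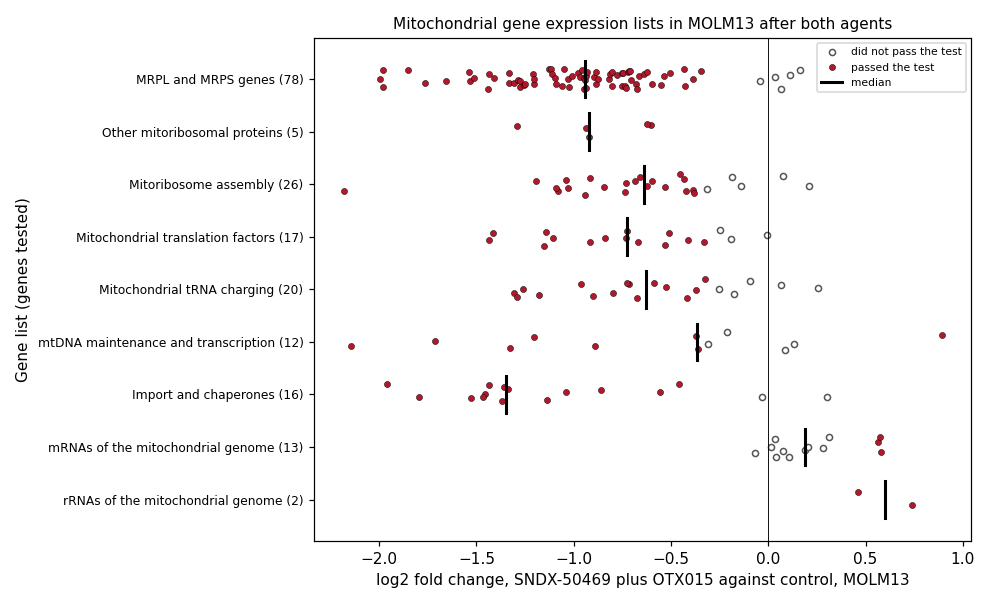
log2 fold change with SNDX-50469 plus OTX015 against control in MOLM13 (x axis) for each gene (points, filled where the test was passed) of 9 lists (rows, with the number of genes tested), with the median as a vertical line. The medians of the nuclear lists lie between -1.35 and -0.36, and those of the mitochondrial mRNAs (0.19) and rRNAs (0.60) above 0.

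Beside the 30.9% of all genes tested that fell and the 31.2% that rose, RNAs of the mitochondrial genome itself gave another picture with both agents. They were taken from the same libraries. Of the 13 mitochondrial mRNAs 0 fell by edgeR, with the lowest value, of MT-CO2, at -0.071 ± 0.035 (edgeR adjusted p = 0.0599). The 3 that rose were MT-ND5 (0.58), MT-CYB (0.58) and MT-ND6 (0.57), with a list median of 0.19. Both rRNAs of the mitochondrial ribosome rose: the small one, MT-RNR1, had 1623 and 1517 CPM with both agents and 834 and 1042 CPM in control (0.74 ± 0.050, edgeR adjusted p = 3.83e-21), and the large one, MT-RNR2, had 9495 and 9745 CPM with both agents and 6547 and 7378 CPM in control (0.46 ± 0.038, edgeR adjusted p = 1.68e-17). The groups did not overlap for either rRNA. Of the 12 genes for copying and transcribing mitochondrial DNA, 7 fell and 1 rose. The helicase TWNK (-2.14), whose exons overlap MRPL43 on the opposite strand, and the transcription factor TFB2M (-1.71) were lowest, and POLG, the DNA polymerase, rose by 0.89.

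MYC, a regulator of many genes for ribosomes and mitochondria, fell with each treatment. It had 232 and 251 CPM with both agents, 797 and 811 CPM with OTX015, 1351 and 1346 CPM with SNDX-50469 and 1706 and 1787 CPM in control, the same order of groups as the summed level of the family. Its log2 fold change was -2.86 ± 0.040 with both agents, -1.09 ± 0.037 with OTX015 and -0.34 ± 0.036 with SNDX-50469. With both agents 5 of 9 regulators fell, where 30.9% of all genes tested did. The coactivators PPRC1 (-1.35) and PPARGC1B (-1.33) came next after MYC, while GABPA, the DNA-binding part of GABP, was at -0.11 ± 0.083. The part of these regulators in the family's fall was not tested.

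In MV4-11 cells, the share of members that fell with SNDX-50469 was near that of all genes. Of 77 genes tested (MRPS24 was too low) 10 fell and 0 rose, where 9.34% of the 15486 genes tested fell and 11.4% rose, and the median log2 fold change was -0.12 against 0.0025 for all genes tested. This median moved to -0.035 without treated replicate 2 and to -0.27 without treated replicate 1. The summed level was 3852 and 3280 CPM with SNDX-50469 and 4307 and 4036 CPM in control, without overlap. MRPL33 had 66.6 and 53.1 CPM with SNDX-50469 and 125 and 111 CPM in control (-0.96 ± 0.16, edgeR adjusted p = 0.000443), and MRPL3 had 109 and 99.7 CPM with SNDX-50469 and 168 and 166 CPM in control (-0.66 ± 0.15, edgeR adjusted p = 0.00452). For both genes the groups lay far apart. MRPL24 had 49.9 and 39.2 CPM with SNDX-50469 and 84.5 and 62.8 CPM in control (-0.70 ± 0.17), with control replicate 1 well above the other libraries. The other genes that fell were MRPL4 (-0.62), MRPL42 (-0.57), MRPL17 (-0.57), MRPS34 (-0.53), MRPL1 (-0.52), MRPL20 (-0.50) and MRPL57 (-0.47). The highest values, of MRPL53 (0.52 ± 0.37), MRPL10 (0.29), MRPS17 (0.26), MRPL34 (0.25) and MRPL41 (0.22), did not pass the test. Without control replicate 1, which was rich in mitochondrial RNA, only MRPL33 and MRPL3 of the family fell, without treated replicate 2 the count was 5, and in 1 fit of all 18 libraries it was 21. In that fit of all 18 libraries 2976 of the 17597 genes tested fell. With control replicate 1 included, all 13 mitochondrial mRNAs had values below 0 in this line (median -0.54), and 0 passed the test. MYC fell by 0.93 ± 0.16.

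In OCI-AML3 cells, 2 members fell and 0 rose with SNDX-50469, where 4.53% of the 16611 genes tested fell and 8.58% rose. The median log2 fold change was -0.095 against 0.0015 for all genes tested, and 69 of the 78 values lay below 0. The summed level was 4278, 4175 and 4208 CPM with SNDX-50469 and 4649, 4567 and 4489 CPM in control, without overlap. MRPS34, a small-subunit protein specific to mitochondria, had 96.3, 95.0 and 97.4 CPM with SNDX-50469 and 143, 127 and 121 CPM in control (-0.43 ± 0.047, edgeR adjusted p = 9.87e-06). MRPS28 had 4.91, 4.61 and 4.18 CPM with SNDX-50469 and 5.86, 5.70 and 5.71 CPM in control (-0.33 ± 0.076, edgeR adjusted p = 0.00393). Neither gene's groups overlapped, though the call of MRPS28 was lost without treated replicate 3, which left 1 gene. Below the fold limit lay MRPS18C (-0.29), MRPS6 (-0.29) and MRPL12 (-0.26, from 21.5, 20.3 and 20.0 CPM with SNDX-50469 and 25.9, 23.9 and 24.5 CPM in control). With the adjusted p as the sole limit 38 members fell, where 3204 of the 16611 genes tested did. The highest values were those of MRPL34 (0.086 ± 0.034, the 1 member above 0 at an unadjusted p below 0.05, and 0 were called with DESeq2 or limma-voom), MRPL53 (0.057), MRPL39 (0.022), MRPL16 (0.013) and MRPL19 (0.012), none past the test. MYC fell by 0.35 ± 0.021.

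The response to SNDX-50469 differed between the lines for few members by the test, in shares no higher than those of all genes. In OCI-AML3 minus MOLM13, both at 500 nM, 2 genes were higher and 0 lower by edgeR. Of 17597 genes tested, 2.60% were higher and 1.49% lower. The count of 0 lower members held with DESeq2, with limma-voom and at an unadjusted p below 0.05. The median difference of the members was 0.14, against 0.0096 for all genes tested. The 2 higher genes were MRPL33 (0.52 ± 0.11, edgeR adjusted p = 0.00526) and MRPL34 (0.44 ± 0.082, edgeR adjusted p = 0.00234). MRPL33 had 82.0, 79.9 and 79.9 CPM with SNDX-50469 and 90.3, 87.5 and 85.7 CPM in control in OCI-AML3, a log2 fold change of -0.12, against -0.62 in MOLM13. Without replicate 2 of SNDX-50469 in MOLM13 its difference lost the call. MRPL34, a large-subunit protein with a bacterial counterpart, had 40.5, 40.4 and 39.4 CPM with SNDX-50469 and 38.7, 36.7 and 38.2 CPM in control in OCI-AML3, and 123 and 117 CPM and 155 and 152 CPM in MOLM13. In MV4-11 minus MOLM13, at unequal doses, 4 genes were lower and 7 higher, where 10.1% of genes tested were lower and 10.5% higher. The median difference of the members was 0.11, against -0.011 for all genes tested. The members' median moved to -0.0071 without treated replicate 1 of MV4-11 and to 0.24 without treated replicate 2. The lowest was MRPL42 (-0.61 ± 0.10, edgeR adjusted p = 0.000358), a large-subunit protein specific to mitochondria, with 36.4 and 36.7 CPM with SNDX-50469 and 55.7 and 54.8 CPM in control in MV4-11, and 59.9 and 53.3 CPM and 57.6 and 54.7 CPM in MOLM13. Exons of MRPL42 overlap RN7SL737P on the same strand, and 5 pseudogenes of MRPL42 are in the table. The highest that passed was again MRPL34 (0.59 ± 0.090, edgeR adjusted p = 0.000129). Left out in turn, single libraries moved the counts of this difference between 2 and 9 lower and between 1 and 23 higher, the last without treated replicate 2 of MV4-11.

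Without treatment, the family stood highest in MOLM13. Its mean sum was 6666 ± 88.2 CPM in MOLM13, 4172 ± 191 CPM in MV4-11 (SD, n = 2 each) and 4568 ± 80.3 CPM in OCI-AML3 (SD, n = 3). The MV4-11 values, 4307 and 4036 CPM, lay below those of OCI-AML3, 4649, 4567 and 4489 CPM, without overlap. In MOLM13 against OCI-AML3, 45 genes were higher and 6 lower, where 30.5% of genes tested were higher and 33.7% lower, with a median of 0.46. MRPL34 (2.02 ± 0.058), MRPS31 (1.99), MRPL54 (1.94), MRPS26 (1.78) and MRPS12 (1.71) differed most. MRPL34 had 155 and 152 CPM in MOLM13 and 38.7, 36.7 and 38.2 CPM in OCI-AML3, far apart. The 6 lower genes were led by MRPS14 (-1.03 ± 0.069), with 26.7 and 27.8 CPM in MOLM13 and 55.0, 57.3 and 54.7 CPM in OCI-AML3, and included MRPL24 (-0.42). In MV4-11 against MOLM13, 58 genes were lower and 1 higher, where 29.3% of genes tested were lower and 34.2% higher, with a median of -0.64. MRPS28 was lowest (-2.36 ± 0.16), with 2.57 and 3.50 CPM in MV4-11 and 16.7 and 15.2 CPM in MOLM13, followed by MRPL14 (-1.75), MRPS26 (-1.67), MRPL13 (-1.64) and MRPL12 (-1.63), and MRPS33 was the 1 higher gene (0.38). In MV4-11 against OCI-AML3, 29 genes were lower and 12 higher, where 33.1% of genes tested were lower and 34.3% higher, with a median of -0.17. The share of members that was lower was near that of all genes, and the share that was higher lay below that of all genes. MRPL36 (-1.44), MRPL53 (-1.41) and MRPL38 (-1.39) were lowest and MRPS31 (1.29) and MRPL34 (0.99) highest. Per kilobase of the canonical transcript, the highest mean level over the untreated lines was that of MRPL33, with 236 CPM per kilobase in MOLM13, 233 in MV4-11 and 173 in OCI-AML3.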

How the data were processed

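Total RNA of MOLM13, MV4-11 and OCI-AML3 cells was sequenced in 18 libraries of 8 groups. The authors deposited whole-number read counts per gene, not normalized, for 58037 Ensembl IDs. STAR and hg38 are named, without versions, in the processing notes of the submitters, and TopHat2 with Cufflinks2 in the study's methods, which leaves the aligner uncertain. The counting program, its annotation and its use of strand were not given in the sources used here, and reads shared by overlapping or antisense genes cannot be separated. Spike-ins are described in the methods, and 0 spike-in IDs were in the table, so that a change in total RNA per cell could not be measured. The sources call the MOLM13 and OCI-AML3 replicates biologic and do not say this of MV4-11. The coefficient of variation between replicates that edgeR estimated was 3.06% in MOLM13 and 3.15% in OCI-AML3, against 13.2% in MV4-11. In any of the 3 lines p-values may measure technical spread. No pair of replicates held identical values.

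Symbols were matched for 55646 IDs, and IDs without one held 0.156% of the counts. Positions and promoters are from RefSeq (GRCh38), and gene types, exon overlaps and canonical transcript lengths from GENCODE.

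Counts were tested with edgeR 4.0.16 (glmQLFit and glmQLFTest in R 4.3.3, limma 3.58.1) on TMM-scaled counts after filterByExpr, in a group-means model without covariates: 8 MOLM13, 4 MV4-11 and 6 OCI-AML3 libraries in a fit each, and all 18 in 1 fit for contrasts between lines. The standard error was the log2 fold change divided by the square root of F. The limits were an adjusted p below 0.05 and a log2 change of at least 0.32. The fold limit is that of the study, whose p limit is stated without an adjustment. Totals of 19320216 to 59711884 counts place a gene with 0 counts below a floor of 3 counts, 0.0502 to 0.155 CPM, which covers counting error only, since PCR copies are not independent molecules. The script was tested on simulated counts.

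Members, lists and motifs were chosen with earlier results of these data known. Named members are, per comparison, the 5 lowest and 5 highest, those with a known role and those against the common direction, and from each list up to 5 genes by size of change. Alternatives were RLE, upper-quartile and no scaling factors, no filter on low counts, DESeq2 1.42.0, limma-voom, the adjusted p alone, 1 fit of all libraries, a replicate block, and each library left out in turn. Replicate numbers did not pair the samples.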

Additional observations from a re-analysis of the deposited data

Results flagged for a closer look

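The response to SNDX-50469, treated against control, differed between cell lines for 13 pairs of a gene and a line by a test of the difference itself (edgeR, a contrast in the fit of all 18 libraries). In OCI-AML3 minus MOLM13 the difference in log2 fold change was 0.52 for MRPL33 and 0.44 for MRPL34, where 2.60% of all genes tested were higher, a share near that of the members. The call of MRPL33 was lost without replicate 2 of SNDX-50469 in MOLM13.

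In MV4-11 minus MOLM13, where doses were 1000 and 500 nM, the difference was -0.61 for MRPL42, -0.45 for MRPL4, -0.43 for MRPL3 and -0.34 for MRPL33. It was 0.34 for MRPL10, 0.36 for MRPL49, 0.38 for MRPL22 and for MRPL54, 0.42 for MRPL45, 0.50 for MRPL41 and 0.59 for MRPL34. MRPL42, MRPL3 and MRPL34 passed the test with each library of the lines left out in turn. MRPL33 lay at the limit (edgeR adjusted p = 0.05), and its call was lost with RLE or upper-quartile factors, without a filter on low counts, with DESeq2 and without single libraries of both lines. Of all genes tested 10.1% were lower and 10.5% higher, shares above those of the members. These contrasts share the MOLM13 libraries.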

How the results depend on the processing

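No called value changed sign under any alternative. Of 14324 alternative values, of single genes and of counts and medians of members, 13580 stayed the same by the following rules. A gene had to keep its side of the limits, and a gene called in neither fit could change sign. A count had to stay within 1.5 times the reported one, and a median within 0.079 of it. The counts of members that fell with both agents stayed within 1.5 times the reported one under every alternative run. With the adjusted p as the sole limit, 2 members rose with OTX015, 57 fell with SNDX-50469 in MOLM13 and 38 in OCI-AML3. The interaction was then lower for 40 and higher for 2. Counts over all genes moved as well. With SNDX-50469 in MOLM13, 2526 genes fell under this limit and 524 without scaling factors, against 752 with TMM and both limits. RLE size factors gave 0 members risen with OTX015 and 2 lower in MV4-11 minus MOLM13. Without scaling factors, 2 rose with OTX015, 8 fell with SNDX-50469 in MOLM13 and 1 in OCI-AML3, and the median of all genes moved to 0.11 with both agents, against 0.018 with TMM. Between untreated lines it then stood at -0.24 in MOLM13 against OCI-AML3, with 33 members higher and 9 lower, and at 0.21 in MV4-11 against MOLM13, with 49 lower and 1 higher. Upper-quartile factors gave 10 fallen with SNDX-50469 in MOLM13 and 2 lower in MV4-11 minus MOLM13. Without a filter on low counts 0 rose with OTX015, 1 fell in OCI-AML3, and 4 were higher in OCI-AML3 minus MOLM13. DESeq2 gave 0 risen with OTX015, 2 higher interactions and 2 lower in MV4-11 minus MOLM13, and limma-voom with quantile normalization 4 higher in the last. In 1 fit of all 18 libraries, 0 rose with OTX015, the interaction was lower for 15, and 21 fell in MV4-11, with the spread taken from all lines. The causes of the other differences were not tested.

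With single libraries left out, members that fell numbered 72 to 73 with both agents, 59 to 63 with OTX015 (0 to 1 rose), 13 to 24 with SNDX-50469 in MOLM13, 2 to 9 in MV4-11 (0 to 1 rose) and 1 to 3 in OCI-AML3. Both agents lowered 64 to 68 members against SNDX-50469 and 51 to 54 against OTX015. The interaction was lower for 19 to 27 and higher for 1 to 2. In OCI-AML3 minus MOLM13, 1 to 3 were higher, and in MV4-11 minus MOLM13 2 to 9 were lower and 1 to 23 higher. Without treatment, 43 to 45 were higher in MOLM13 against OCI-AML3, 57 to 65 lower in MV4-11 against MOLM13, and 27 to 31 lower and 8 to 14 higher in MV4-11 against OCI-AML3. An arm left with 1 library was assumed to vary like the others of its fit.

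Deviations of same-numbered replicates correlated between -0.045 and 0.098, so the replicate numbers did not pair the samples. With the replicate block 0 members rose with OTX015 (MRPL38 was lost), 2 more members (MRPL50 and MRPS5) fell in MV4-11, and no other call of a member changed.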
